A study of Mus musculus with 24 samples.

Results

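Floxed and control mouse leukaemias were compared in the MxCre set whose titles carry A2. This set holds 6 of the 24 RNA-seq libraries of the series, taken as the 3 libraries titled floxed and the 3 titled wild type. All 24 libraries are from MLL-AF9 leukaemia, an acute myeloid leukaemia driven by a fusion of the histone methyltransferase MLL with AF9, and were made from bone marrow of moribund secondary transplant recipients. Cre was present in the A2 controls and in the A2 floxed cells alike. It was expressed from the interferon-inducible Mx1 promoter, and all recipients of these cells were injected with pIpC, a double-stranded RNA mimic that induces interferon, at 12.5 μg per gram in 3 doses from day 21 after transplantation. The 3 control libraries have wild-type alleles and the 3 floxed libraries carry fl/fl alleles, but the title and the cell type field disagree on the gene: the title reads A2 and the cell type field reads Arid1b. The set is therefore named by its title, and no deleted gene is assigned. The labels give no age or sex of the animals and name no cell sort, so host bone marrow cells may be in the samples. Nothing says whether replicates came from separate donors, so p-values measure the spread between these libraries only.

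SWI/SNF complexes use ATP to move nucleosomes. ARID1B is a large subunit of the BAF form and ARID2 of the PBAF form, and both carry an ARID domain that can contact DNA. In myeloid cells, cytokine receptors signal through JAK kinases and STAT5, and STAT5 switches on inhibitors of the same pathway, among them Cish and the SOCS proteins. The Pim kinases, which promote survival, are further known targets of this pathway.

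Arid1b was measured at 211, 141 and 442 CPM (reads of a gene relative to the scaled total of its library) in control libraries 1 to 3, and at 183, 181 and 169 CPM in floxed libraries 1 to 3. All floxed values lay within the control range, and control 3 was far above the other 5 libraries. The log2 fold change of Arid1b was -0.57 ± 0.45 (SE; 95% interval -1.51 to 0.37; edgeR quasi-likelihood test, adjusted p = 0.703). Arid2 was at 300, 189 and 547 CPM in the controls and at 245, 348 and 274 CPM in the floxed libraries. Its log2 fold change was -0.26 ± 0.41 (edgeR adjusted p = 0.880), again with overlapping groups. Without control 3, the library with the highest level of both genes, the log2 fold changes were 0.0148 for Arid1b and 0.240 for Arid2. Counts over a whole gene do not test the loss of single exons, so these levels do not check the deletion.

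The libraries held 16361323 to 26240568 counts, and the depth of the other 18 was 12069153 to 38315410. Floxed 3 stood apart. Rn45s, the entry for the ribosomal RNA precursor, took 13.6% of its counts and 0.244% to 0.475% in the other 5 libraries. Its log2 levels correlated with those of floxed 1 and floxed 2 at Pearson's r of 0.900 and 0.917 across genes, where floxed 1 and 2 correlated at 0.967 and the controls at 0.965 to 0.966 with each other. Floxed 3 was the highest of the 6 libraries for 19 of the 21 erythroid genes and 37 of the 39 interferon response genes in the table, against 22.4% of all genes tested. The called genes and the list medians that it moves are given with and without it.

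Cish and Gabbr1 rose and Neurl1b and Slc12a4 fell in the floxed libraries, by the edgeR quasi-likelihood test at an adjusted p under 0.05. These were the only 4 of 14099 genes called (0.0284%), with 2 in each direction, while 1489 genes (10.6%) had an unadjusted p under 0.05, 5.43% of all genes as higher and 5.14% as lower. The groups were fully separate for 2109 genes (15%), of which 1012 were higher (7.18%) and 1097 lower (7.78%).

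Cish encodes a cytokine-inducible SH2 protein that restrains signalling from JAK-coupled receptors. It was at 1.30, 3.64 and 3.74 CPM in the controls and at 26.9, 15.7 and 18.4 CPM in the floxed libraries. Every floxed library lay far above every control, and floxed 3 was no exception. Cish rose 7.02-fold, a log2 fold change of 2.81 ± 0.40 (SE; 95% interval 1.98 to 3.64; edgeR adjusted p = 0.00808). Across the other 18 libraries of the series, Cish ran from 2.41 to 5.47 CPM, so none reached the lowest A2 floxed library.

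The Cish promoter is shown because it carries the letters of the STAT5 consensus, TTCNNNGAA, which is its own reverse complement. The window runs from 250 bases before to 50 bases after the annotated start in RefSeq (GRCm38.p6, plus strand, chr9:107296409-107296708), and capitals mark the matches.

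Cish: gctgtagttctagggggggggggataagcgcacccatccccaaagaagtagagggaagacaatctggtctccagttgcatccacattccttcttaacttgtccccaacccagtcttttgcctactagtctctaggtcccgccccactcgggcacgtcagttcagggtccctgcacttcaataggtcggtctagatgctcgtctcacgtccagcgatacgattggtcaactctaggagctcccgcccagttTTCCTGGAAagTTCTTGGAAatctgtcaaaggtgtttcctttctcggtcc

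The 2 matches begin at bases 1 and 12, counted from the annotated start as base 1. At least 1 match was present in 8.3% of 32851 RefSeq promoter windows of this length and at least 2 in 0.457%. The windows of Gabbr1, Neurl1b, Slc12a4, Pim1, Pim2, Pim3, Stap2 and Socs1 held 0 matches, and those of Socs3 and Dtnbp1 held 1 each. Socs2 and Socs5 had no window in the promoter set used. In the GENCODE annotation Cish starts further upstream, at 107296026, so the positions hold for the RefSeq start only. A match describes these letters only.

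Gabbr1 encodes a subunit of the metabotropic receptor for the neurotransmitter GABA. It was at 0.386, 0.599 and 0.760 CPM in the controls and at 5.98, 7.73 and 6.38 CPM in the floxed libraries. The floxed libraries lay close together and clear of the controls. Gabbr1 rose by 3.52 ± 0.50 on the log2 scale (edgeR adjusted p = 0.00808). In the other 18 libraries Gabbr1 ran from 0.324 to 3.23 CPM, below all 3 A2 floxed libraries. The gene lies on chromosome 17 from 37045966 to 37074305 (RefSeq, GRCm38.p6).

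Neurl1b encodes an E3 ubiquitin ligase of the neuralized family, which acts on Notch ligands. Its level was 19.4, 22.5 and 20.2 CPM in the controls and 2.46, 4.35 and 4.50 CPM in the floxed libraries. The controls were nearly equal and the floxed libraries all far below them. The log2 fold change was -2.46 ± 0.38 (edgeR adjusted p = 0.0142), and the other 18 libraries, at 5.53 to 28.4 CPM, all lay above the highest A2 floxed value. Slc12a4 encodes KCC1, a potassium-chloride cotransporter involved in cell volume control. It was at 54.3, 34.3 and 43.9 CPM in the controls and at 5.43, 10.3 and 11.2 CPM in the floxed libraries. The groups were clearly separate, with floxed 1 lowest. The log2 fold change of Slc12a4 was -2.30 ± 0.38 (edgeR adjusted p = 0.0298), and the other 18 libraries ran from 15.5 to 69.0 CPM, again all above the A2 floxed libraries.

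**Figure D1:**
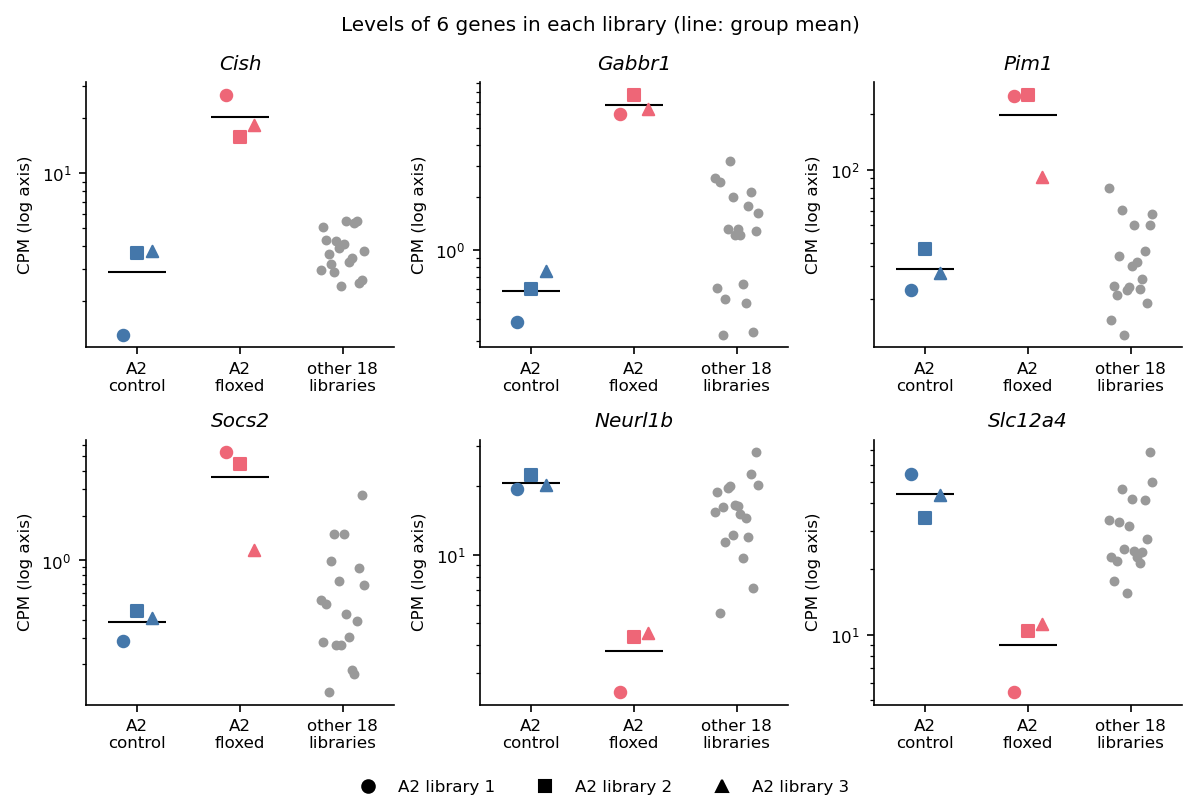
Level of 6 genes in CPM (log axis) in each A2 control and A2 floxed library, with a line at the group mean and symbols for libraries 1 to 3, and in the other 18 libraries (grey). The A2 floxed libraries lie outside the range of all 21 other libraries for Cish, Gabbr1, Pim1, Neurl1b and Slc12a4, and 3 of the other 18 reach the lowest A2 floxed library for Socs2.

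These calls were sensitive to single libraries while their size was not. Leaving out control 1 or control 2 left 0 called genes in edgeR (984 and 1204 genes at an unadjusted p under 0.05), with adjusted p-values for Cish of 0.0676 and 0.0651. Leaving out floxed 1 left Gabbr1 alone, leaving out floxed 2 gave 18 called genes with the 4 among them, and leaving out control 3 lost Slc12a4 and gained Habp4. Without floxed 3, 10 genes of 14319 were called (0.0698%), the 4 above among them, and 7.03% of genes were higher and 9.34% lower at an unadjusted p under 0.05. The log2 fold change of Cish stayed between 2.46 and 3.04 and that of Gabbr1 between 3.29 and 3.75 in the 6 fits that left out 1 library. In the set's 6 libraries alone the edgeR fit called 3 genes, Kdm5d, Uty and Ets1, and none of the 4. Kdm5d and Uty are Y-linked, with 1 and 0 reads in the controls, so they passed the filter there through the floxed libraries. In that fit Cish had a log2 fold change of 2.82 and an adjusted p of 0.232. DESeq2 called all 4, with Cish and Gabbr1 at an adjusted p of 1.2e-10.

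All 3 floxed libraries were Y-positive and all 3 controls Y-negative, so genotype and sex of the cells cannot be told apart within this set. Kdm5d, a Y-linked histone demethylase, was at 42.1, 51.7 and 48.7 CPM in the floxed libraries and at most 0.0482 CPM in the controls. Xist, the RNA that silences an X chromosome in female cells, was at 2079, 2769 and 2507 CPM in the controls and at 33.8, 22.4 and 129 CPM in the floxed libraries. With a term for Y-positive libraries, estimated from sets where sexes are mixed, 0 genes were called in edgeR (1200 at an unadjusted p under 0.05). In that fit the log2 fold change was 2.84 for Cish (adjusted p = 0.150), 3.96 for Gabbr1 (0.128), -2.78 for Neurl1b (0.128) and -2.61 for Slc12a4 (0.157). Outside the set, Cish was at 2.95 to 5.45 CPM in the 7 Y-positive libraries and at 2.41 to 5.47 CPM in the 11 Y-negative ones. Slc12a4 was at 17.6 to 41.7 CPM in those 7 and at 15.5 to 69.0 CPM in those 11, and Neurl1b at 5.53 to 22.6 and 7.14 to 28.4 CPM. Gabbr1 reached 3.23 CPM in the Y-positive and 2.01 CPM in the Y-negative libraries, both under the A2 floxed level.

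The Y-linked reads were incomplete in 2 of the 3 floxed libraries. The 4 Y genes shown here, chosen after their values were seen, are broadly expressed in male tissues and lie on the Y chromosome in the order Kdm5d, Eif2s3y (a translation initiation factor subunit), Uty (a histone demethylase relative) and Ddx3y (an RNA helicase). Floxed 2 expressed all of them, at 51.7, 108, 28.9 and 96.0 CPM. Floxed 1 held Kdm5d and Uty, at 42.1 and 27.4 CPM, but 0 reads of Eif2s3y and 2 reads (0.100 CPM) of Ddx3y. Floxed 3 held Kdm5d, Uty and Ddx3y, at 48.7, 35.9 and 105 CPM, and 1 read (0.0693 CPM) of Eif2s3y. Single members were thus missing while their neighbours were at 27.4 CPM or more. In the libraries that had all 4 genes, the lowest Kdm5d was 50.9 CPM and the lowest Uty 28.9 CPM. Kdm5d in floxed 1 and 3 and Uty in floxed 1 were below these values. Among the 10 Y-positive libraries of the series, 3 had at least 1 of these genes under 1 CPM. All 3 were among the 4 Y-positive MxCre floxed libraries, and the third was MxCre A1b floxed 1, with 0 reads of Uty and Ddx3y. The 6 other Y-positive libraries had all 4 genes, Eif2s3y at 89.9 CPM or more.

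**Figure D2:**
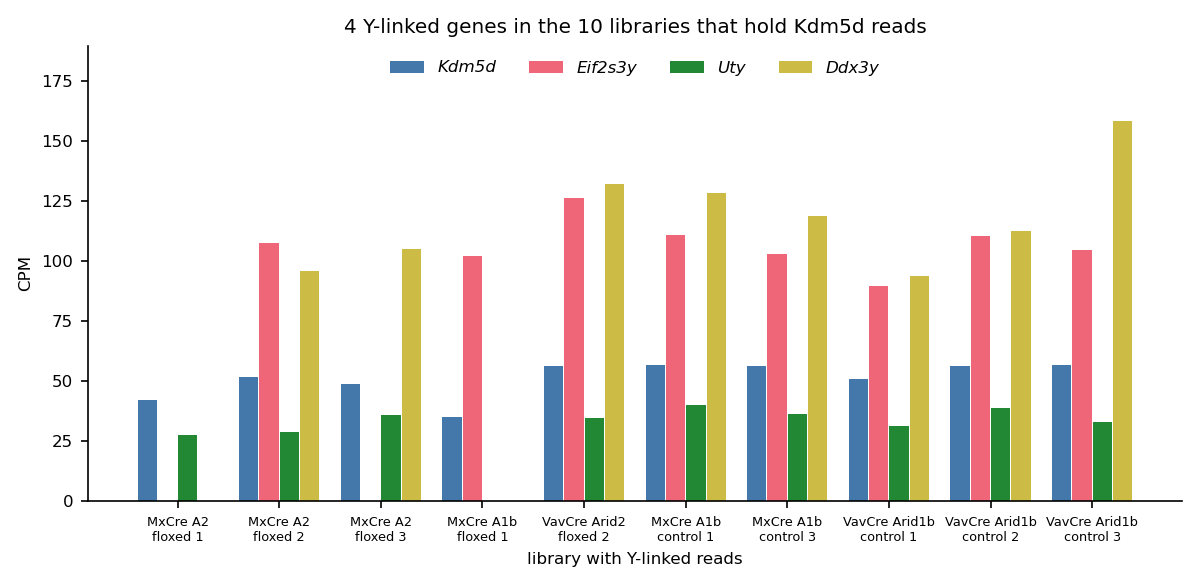
Level in CPM of Kdm5d, Eif2s3y, Uty and Ddx3y, bars in that order, in each of the 10 Y-positive libraries (Kdm5d over 10 CPM). Eif2s3y is missing in A2 floxed 1 and 3 and Ddx3y in A2 floxed 1, while Kdm5d is present in all 10 at 35.2 to 56.9 CPM.

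Pim1 and Socs2, of the same feedback group as Cish, were higher without passing the test. Pim1 was at 22.4, 37.2 and 27.7 CPM in the controls and at 250, 255 and 91.5 CPM in the floxed libraries. The groups did not overlap, with floxed 3 the lowest of the floxed libraries. The log2 fold change of Pim1 was 2.77 ± 0.50 (edgeR adjusted p = 0.0510), just past the threshold, and all other 18 libraries lay below the lowest floxed value, at 12.7 to 79.3 CPM. Socs2, an inhibitor of growth hormone and cytokine receptors, was at 0.289, 0.461 and 0.409 CPM in the controls and at 5.38, 4.42 and 1.18 CPM in the floxed libraries. Its log2 fold change was 3.23 ± 0.64 (edgeR adjusted p = 0.0978). Without floxed 3 both passed the test, Pim1 at 3.13 ± 0.48 (adjusted p = 0.0171) and Socs2 at 3.65 ± 0.60 (adjusted p = 0.0271).

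Of the 21 tested genes in the list of cytokine and MAP kinase feedback genes, 1 was called by edgeR (Cish, higher; 0.0284% of all genes), 5 were higher and 5 lower without overlap (7.18% and 7.78% of all genes). The higher ones were Cish, Pim1, Socs1, Socs2 and Socs5. Socs1, an inhibitor of JAK kinases, was at 3.62, 3.23 and 5.61 CPM in the controls and 8.69, 10.2 and 6.58 CPM in the floxed libraries (log2 fold change 1.04 ± 0.41; edgeR adjusted p = 0.377). The lower ones were Pim3, Socs7, Dusp6, Etv5 and Spred1. Dusp6, a phosphatase of ERK, was at 174, 49.8 and 93.7 CPM in the controls and at 29.2, 17.1 and 41.8 CPM in the floxed libraries (log2 fold change -1.85 ± 0.91; adjusted p = 0.485). Spred1, an inhibitor of RAS signalling, was at 59.1, 33.2 and 48.5 CPM against 13.3, 19.6 and 16.5 CPM (-1.51 ± 0.50; adjusted p = 0.292). Etv5, an ETS factor that ERK signalling induces, was at 3.69 CPM or more in every control against 1.26, 0.884 and 1.80 CPM (-3.10 ± 1.32; adjusted p = 0.411). The median of the list was -0.28 (-0.52 without floxed 3) beside 0.0151 for all tested genes, so the list did not shift as a whole in the direction of Cish.

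Among receptors and transcription factors above these genes, Csf2rb, Stat5a and Stat5b overlapped between the groups, while Kit and Il3ra did not. A list of 40 JAK-STAT5 pathway genes was put together after the Cish result was known. Of these 33 were tested and 1 was called by edgeR (0.0284% of all genes). Without overlap, 5 were higher and 2 lower (7.18% and 7.78% of all genes). The called gene was Cish itself, and Socs2 was in both lists, so these counts repeat genes of the feedback list. The median of the JAK-STAT5 list was 0.19, and -0.0682 without floxed 3. Csf2rb, the shared signalling chain of the GM-CSF, IL-3 and IL-5 receptors, was at 354, 291 and 339 CPM in the controls and 370, 372 and 333 CPM in the floxed libraries. Stat5a was at 71.8, 77.1 and 88.2 CPM against 68.2, 82.0 and 73.9 CPM, and Stat5b at 147, 150 and 132 CPM against 81.5, 91.0 and 188 CPM. Stat5b overlapped through floxed 3 alone, with floxed 1 and 2 below every control. Kit, the stem cell factor receptor, was higher without overlap, at 41.4, 74.9 and 63.3 CPM against 143, 118 and 75.0 CPM, with control 2 and floxed 3 almost equal. The log2 fold change of Kit was 0.90 ± 0.48 (edgeR adjusted p = 0.530). Il3ra and the phosphatase gene Ptpn6 were lower without overlap, Il3ra at 92.8, 113 and 124 CPM against 51.5, 83.7 and 71.5 CPM. Transcripts of the ligands were near 0: Il3 had no reads in the 6 libraries, and Csf2 reached 0.0502 CPM.

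Habp4 and Ccdc69 shared the adjusted p of Pim1. Habp4, which encodes a hyaluronan- and RNA-binding protein, was at 17.9, 22.0 and 9.88 CPM in the controls and at 4.42, 4.71 and 5.20 CPM in the floxed libraries (log2 fold change -1.80 ± 0.32; edgeR adjusted p = 0.0510). Ccdc69 was at 20.8, 21.0 and 21.3 CPM against 6.53, 11.6 and 10.9 CPM (-1.12 ± 0.20; adjusted p = 0.0510). Ets1, an ETS-family transcription factor, was at 18.8, 19.7 and 25.9 CPM in the controls and at 117, 109 and 130 CPM in the floxed libraries (2.46 ± 0.54; adjusted p = 0.184). For all 3 genes the groups did not overlap. The call for Habp4, Ccdc69 and Pim1 changed with the genes tested: all 3 passed with a minimum count of 50 and also without Rn45s, and each of these fits called 7 genes.

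Without floxed 3, edgeR also called Pim1, Socs2, Dtnbp1, Nrep, Stap2 and Fam46d. DESeq2 called the first 5 of these with floxed 3 kept. Fam46d was not tested with floxed 3, since it did not pass the filter on low counts there. Dtnbp1, which encodes dysbindin, a subunit of a complex for lysosome-related organelles, was at 37.1, 53.4 and 44.0 CPM in the controls and at 124, 140 and 57.5 CPM in the floxed libraries. Its log2 fold change without floxed 3 was 1.56 ± 0.21 (edgeR adjusted p = 0.00801). Stap2, an adaptor protein that binds STAT proteins and receptor kinases, was at 0.386, 0.277 and 0.234 CPM in the controls and at 25.2, 9.13 and 0.693 CPM in the floxed libraries. In both, floxed 1 and 2 were high and floxed 3 was only just above the controls. Nrep and Fam46d were read in floxed 1 and 2 at up to 9.29 and 2.80 CPM, against at most 0.193 CPM in any control, and their edgeR adjusted p-values without floxed 3 were 0.0421 and 0.0478. Fam46d had no reads in the controls and passed the filter through floxed 1 and 2.

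The 10 highest and 10 lowest non-overlapping changes were not called by edgeR, though DESeq2 called some of them, among them Uty (adjusted p = 5.6e-10), Colec12 (2.3e-05) and Angptl2 (8.2e-05). Higher were the Y genes Uty, Kdm5d and Ddx3y, and Lipg, Car2, Postn, Eps8l1, Tmem246, Six4 and Stap2. Six4, a homeobox gene, was at 4.05, 0.231 and 0 CPM in the controls and at 55.6, 114 and 14.7 CPM in the floxed libraries (edgeR adjusted p = 0.370). The control means of Six4 in MxCre A1b, VavCre Arid1b and VavCre Arid2 were 59.0, 46.9 and 67.9 CPM, near the A2 floxed mean of 61.3 CPM. Lower were Pcdh7, 1700030C10Rik, Ptprt, Angptl2, Tnxb, Tktl1, Slc9a4 and Colec12, with Xist and its antisense gene Tsix. Angptl2, a secreted angiopoietin-like protein, was at 34.9, 13.3 and 27.8 CPM in the controls and at 0.402, 0.258 and 0.832 CPM in the floxed libraries (-5.72 ± 1.40; adjusted p = 0.210). Its control means in MxCre A1b, VavCre Arid1b and VavCre Arid2 were lower than in A2, at 2.41, 0.804 and 8.47 CPM. Colec12, a scavenger receptor, was at 107, 11.7 and 47.5 CPM against 1.00, 2.87 and 0.554 CPM (-5.18 ± 1.13; adjusted p = 0.184). The strand setting of the counting is not given in the sources used here, so reads of Xist and Tsix may not be told apart.

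Leukaemia identity genes were expressed in all 6 libraries, and edgeR called none of the 10 leukaemia cell markers, beside 0.0284% of all genes. Hoxa9, which MLL fusions keep active, was at 249, 176 and 385 CPM in the controls and at 444, 312 and 126 CPM in the floxed libraries. Meis1, its cofactor, was at 95.6, 64.8 and 128 CPM against 98.0, 32.8 and 107 CPM. Both overlapped. The median log2 fold change of 17 tested MLL fusion targets was -0.0121.

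Myeloid maturation genes divided the floxed libraries. Mpo, the myeloperoxidase of primary neutrophil granules, was at 859, 1663 and 1480 CPM in the controls and at 8218, 11198 and 1683 CPM in the floxed libraries (log2 fold change 2.40 ± 1.12; edgeR adjusted p = 0.458). Floxed 1 and 2 were high and floxed 3 was level with control 2. Elane, the neutrophil elastase gene, ran from 1646 to 2137 CPM in the controls. It was higher in floxed 1 (4786 CPM) and floxed 2 (5328 CPM), but floxed 3, at 1023 CPM, lay below every control. The summed level of the primary granule list was 20643 and 25609 CPM in floxed 1 and 2, above the other 18 libraries (4339 to 17550 CPM), and 7105 CPM in floxed 3. Of its 14 members, 2 were higher without overlap (Mpo and Igsf6) and 0 were lower, beside 7.18% and 7.78% of all genes. Mpo was separate only by 1683 against 1663 CPM, and Igsf6 is an immunoglobulin superfamily gene that the list includes. The median was 0.51, and 0.69 without floxed 3. The granulocytic maturation list, of later granule genes such as Ltf and Camp, had 3 of 32 higher and 0 lower without overlap, near the 7.18% of all genes that were higher. Floxed 3 was the highest of the 6 libraries for 26 of these 32 genes, and the list's median went from 0.45 to -0.37 without it.

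No monocyte or macrophage gene was called by edgeR, beside 0.0284% of all genes, while DESeq2 called Fn1 (adjusted p = 0.0026). Of 32 tested members, 5 were lower and 3 higher without overlap (7.78% and 7.18% of all genes), 8 lower and 1 higher had an unadjusted p under 0.05, 25 had a log2 fold change below 0, and the median was -1.10. It was -1.85 without floxed 3, with 17 lower and 3 higher in the remaining libraries (22.8% and 22.9% of all genes). Fn1, encoding fibronectin, was at 5077, 889 and 273 CPM in the controls and at 82.8, 122 and 100 CPM in the floxed libraries (-4.35 ± 1.12; edgeR adjusted p = 0.215). The controls differed widely and all exceeded the floxed libraries. S100a4, a calcium-binding protein of motile monocytes, was at 126, 38.0 and 41.5 CPM against 4.77, 4.82 and 6.58 CPM (-3.67 ± 1.27; adjusted p = 0.312). Control 1 had the highest summed level of this list, 14180 CPM, against 3662 and 5825 CPM in the other controls and 1477 to 5203 CPM in the floxed libraries. Ly6c2, a monocyte surface gene, went the other way, at 456, 423 and 445 CPM against 685, 965 and 876 CPM (0.93 ± 0.58; adjusted p = 0.611). In bulk samples, fewer cells of a type and less RNA per cell cannot be told apart.

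Immediate-early genes, a first transcriptional answer to growth factors or handling, had 4 of 19 tested members lower and 0 higher without overlap, beside 7.78% and 7.18% of all genes. The 4 were Egr1, Fos, Fosl1 and Jun, and the list's median was -0.80 (-1.54 without floxed 3). Egr1 was at 24.7, 3.87 and 21.3 CPM in the controls and at 0.352, 1.36 and 2.08 CPM in the floxed libraries (-3.73 ± 1.34; edgeR adjusted p = 0.328). Nab2, a corepressor that EGR factors induce, was at 29.5, 11.1 and 31.4 CPM in the controls and at 2.76, 5.05 and 6.93 CPM in the floxed libraries (log2 fold change -2.29 ± 0.53; adjusted p = 0.210). Ccnd1, the cyclin D1 gene that growth factor signals induce, was at 83.0, 54.1 and 136 CPM against 12.8, 5.23 and 13.3 CPM (-3.13 ± 0.98; adjusted p = 0.280). Its control mean was 91.0 CPM in A2, but 14.9, 10.2 and 30.2 CPM in MxCre A1b, VavCre Arid1b and VavCre Arid2. For Egr1 the control mean was 16.7 CPM in A2 and 1.25, 0.829 and 16.5 CPM in those sets. The A2 controls were thus above some other control groups for both genes. The edgeR test called none of Egr1, Nab2 and Ccnd1; DESeq2 called Nab2 (adjusted p = 0.0035) and Ccnd1 (0.0254).

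Glycolysis and hypoxia genes had 11 of 31 tested members lower and 1 higher without overlap, beside 7.78% and 7.18% of all genes, and a median of -0.35. Aldoc, the brain-type aldolase, was at 12.5, 21.4 and 11.1 CPM in the controls and at 2.96, 3.83 and 1.25 CPM in the floxed libraries (-2.47 ± 0.59; edgeR adjusted p = 0.210). Pfkm, a phosphofructokinase subunit, was at 14.9, 34.9 and 22.6 CPM against 3.47, 8.10 and 9.43 CPM (-1.79 ± 0.56; adjusted p = 0.280). Slc2a1, the glucose transporter GLUT1, was at 46.1, 48.3 and 35.9 CPM against 24.5, 28.3 and 20.4 CPM. Slc2a3, the GLUT3 gene, was the exception, at 15.2, 17.2 and 11.6 CPM against 41.1, 18.2 and 69.8 CPM. For 16 of the 32 listed genes floxed 3 was the lowest of the 6 libraries. Without floxed 3 the median was -0.18, with 11 lower and 6 higher without overlap, beside 22.8% and 22.9% of all genes.

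Most erythroid and interferon genes were highest in floxed 3. Slc4a1, the red cell anion exchanger, was at 1.40, 0.0461 and 0.936 CPM in the controls and at 0.301, 0.147 and 279 CPM in the floxed libraries. The summed erythroid level was 1460 CPM in floxed 3, 254 and 203 CPM in floxed 1 and 2, and 99.8 to 146 CPM in the controls. The other 18 libraries ran from 66.9 to 803 CPM. Hbb-bh1, an embryonic globin gene, reached 0.0368 CPM at most in the 6 libraries. Hba-a1 and Hba-a2, Hbb-b1 and Hbb-bs, and Hbb-b2 and Hbb-bt have identical counts in every library, so the list holds the same reads under both names. The interferon response list summed to 4335 CPM in floxed 3, above the other 18 libraries (1300 to 3094 CPM), and to 861 and 1483 CPM in floxed 1 and 2 against 1514 to 1906 CPM in the controls. Without floxed 3 the median log2 fold change went from 5.49 to -1.28 for the erythroid list and from 1.34 to -0.20 for the interferon list. Igj, the joining chain of secreted antibodies, was at 9.21, 9.50 and 14.6 CPM in the controls and at 24.6, 29.9 and 194 CPM in the floxed libraries. The T and NK cell list had 8 of 24 members higher and 0 lower without overlap, beside 7.18% and 7.78% of all genes. Floxed 3 was the highest library for 23 of its 27 genes, and its median was 1.47 with floxed 3 and 0.69 without it. Lck, a T cell kinase, was at 1.64, 1.06 and 1.93 CPM against 4.67, 6.56 and 17.2 CPM (2.61 ± 0.76; edgeR adjusted p = 0.253). The part of other cells in these results was not tested.

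**Figure D3:**
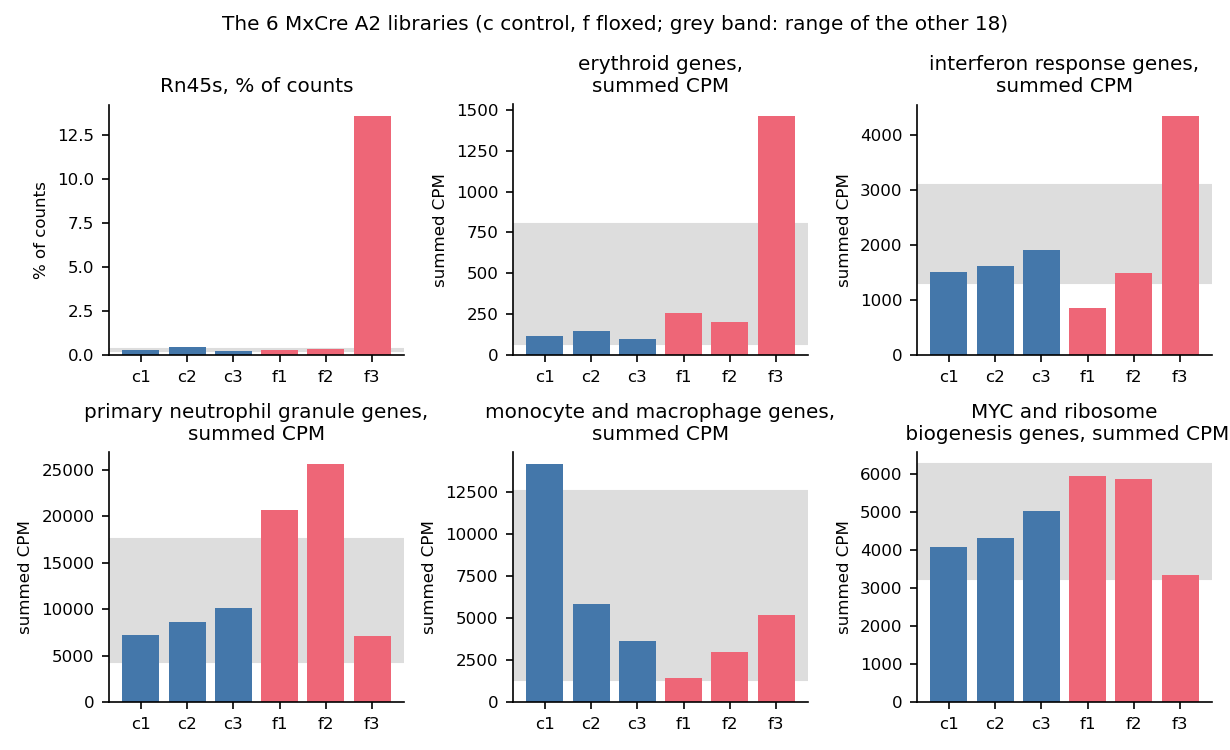
Share of Rn45s counts in percent and summed CPM of 5 gene lists in the 6 A2 libraries (c control, f floxed), with the range of the other 18 libraries as a grey band. Floxed 3 alone has 13.6% Rn45s counts and the highest erythroid and interferon sums, while floxed 1 and 2 have the highest primary granule sums.

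Of 24 tested MYC and ribosome biogenesis genes, 0 were without overlap, beside 15% of all genes. The median was 0.18, and 0.45 without floxed 3, when 17 were higher and 1 lower, beside 22.9% and 22.8% of all genes in that comparison. The 40 cell cycle genes had 1 lower without overlap, Ccnd1, beside 7.78% of all genes, and a median of 0.0894. Oxidative phosphorylation genes had a median of 0.0527 (0.23 without floxed 3), with floxed 3 the lowest library for 29 of 31. SWI/SNF subunits had 1 of 27 lower without overlap, beside 7.78% of all genes, and a median of 0.0436. The lower one was Ss18l1, at 16.5, 15.9 and 12.2 CPM against 7.44, 9.43 and 11.4 CPM.

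Stem and progenitor genes varied within the floxed group. Cd34 was at 80.4, 216 and 213 CPM in the controls and at 1.61, 84.2 and 417 CPM in the floxed libraries, and Gata2, a stem cell transcription factor, at 27.2, 40.1 and 105 CPM against 0.452, 22.4 and 164 CPM. Flt3, a receptor of early progenitors, ran from 1.81 CPM in floxed 1 to 249 CPM in floxed 3. Floxed 1 was the lowest and floxed 3 the highest of the 6 for Cd34, Gata2 and Flt3. The edgeR test called no member of this list, beside 0.0284% of all genes.

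**Figure D4:**
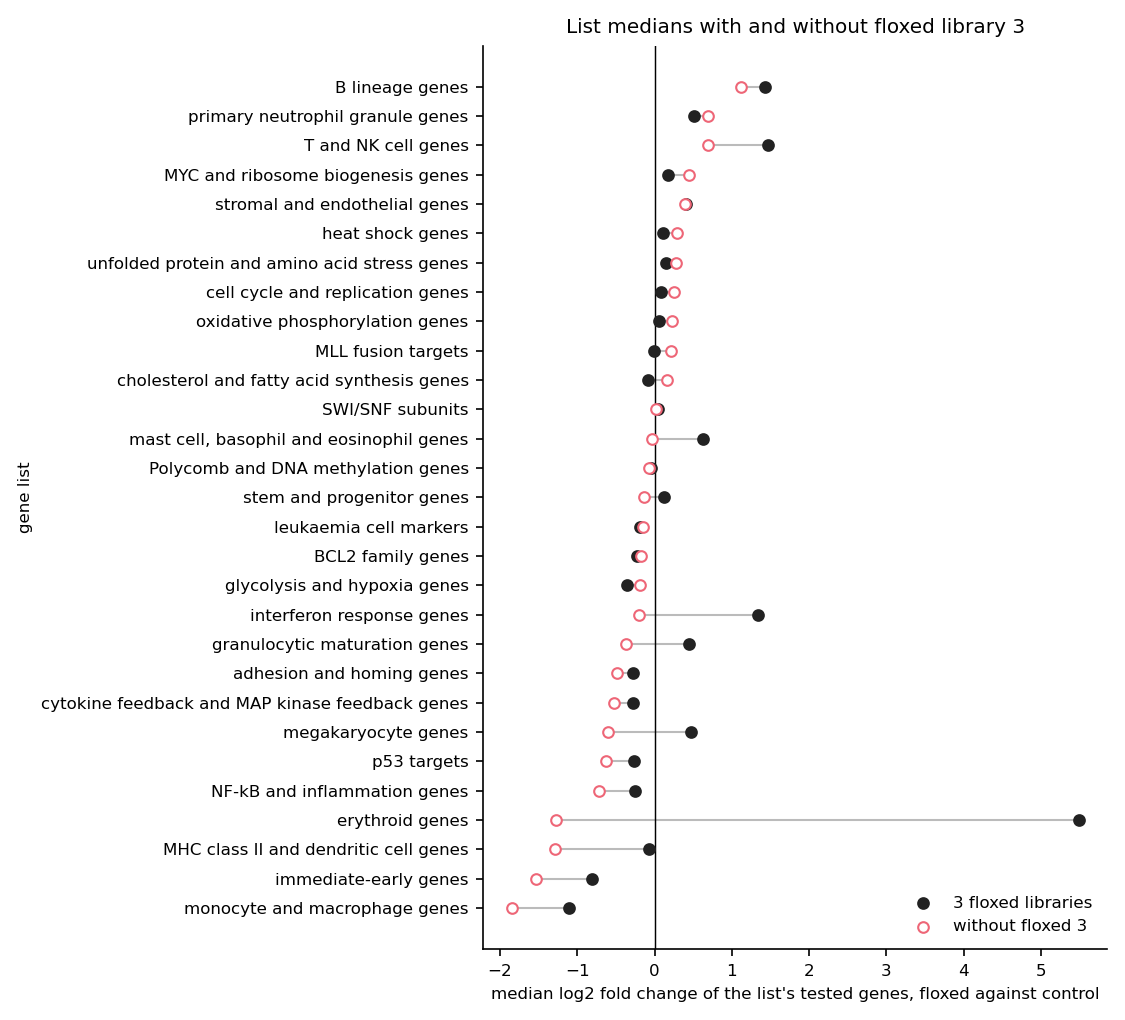
Median log2 fold change of floxed against control over the tested genes of each of 29 lists, with all 3 floxed libraries (filled) and without floxed 3 (open). The erythroid, interferon, granulocytic maturation and megakaryocyte medians are among those that cross 0 when floxed 3 is left out, and the monocyte and immediate-early medians stay below 0.

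The A2 change was set against the floxed change of the other 3 sets, each with its own controls. The difference passed the edgeR test for 1036 genes against VavCre Arid1b (7.35%; 464 higher, 3.29%, and 572 lower, 4.06%, in the A2 set), 69 against VavCre Arid2 (0.489%; 0.411% higher and 0.078% lower) and 27 against MxCre A1b (0.192%; 0.121% higher and 0.0709% lower). In VavCre Arid1b the sexes were reversed: the Y-positive libraries were the 3 controls. In MxCre A1b the Y-positive libraries were controls 1 and 3 and floxed 1, and in VavCre Arid2 floxed 2 alone. With the term for Y-positive libraries, 13 genes differed from VavCre Arid1b, 10 of them among the 1036. From VavCre Arid2 255 differed, 66 of them among the 69. From MxCre A1b 28 differed (26 higher and 2 lower in the A2 set), 7 of them among the 27. The counts without this term moved with single libraries. Without control 1 they were 316, 3 and 2 in the same order, and without control 2 they were 673, 0 and 13. Without floxed 3 the first 2 were 2076 and 666. In the libraries of the A2 and A1b sets alone, 0 genes differed between those sets in edgeR (1599 at an unadjusted p under 0.05). The change of Cish was larger in A2 than in all 3 other sets, by 3.34 ± 0.54 against VavCre Arid1b (adjusted p = 0.00389), 3.10 ± 0.54 against VavCre Arid2 (0.0236) and 2.75 ± 0.54 against MxCre A1b (0.0392). Gabbr1 also differed from all 3, by 4.44, 4.14 and 4.61 (adjusted p = 0.00291, 0.0220 and 0.0136). Its controls averaged 0.582 CPM in A2 and 2.48, 0.773 and 2.24 CPM in the other sets, so control levels enter these differences. Slc12a4 differed from VavCre Arid1b by -3.55 (0.00290) and from VavCre Arid2 by -2.44 (0.0438), but from MxCre A1b at an adjusted p of 0.0555. Neurl1b differed from VavCre Arid1b by -3.24 (0.00361) and had adjusted p-values of 0.118 and 0.0503 for VavCre Arid2 and MxCre A1b.

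For Pim1 and Socs2 the differences missed the threshold. Socs2 also rose in VavCre Arid1b floxed libraries, with a log2 fold change of 2.58 ± 0.63 (edgeR adjusted p = 0.0241), and the difference of the A2 change from it was 0.65 (adjusted p = 0.674). For Pim1 the differences had adjusted p-values of 0.145, 0.101 and 0.0697. The 3 A2 controls and the 3 A1b controls differed in 0 genes by edgeR (817, or 5.79%, at an unadjusted p under 0.05; 28 by DESeq2 and 36 by voom). Between these controls Cish differed by -0.50 on the log2 scale, Slc12a4 by 0.55 and Neurl1b by 0.31 (edgeR adjusted p = 0.985, 0.983 and 0.998). Gabbr1 differed by more, -1.93 (edgeR unadjusted p = 0.00072, adjusted p = 0.591), with the A2 controls lower. Egr1, Ccnd1, Angptl2 and Six4 differed by 3.74, 2.62, 3.40 and -5.35. Their edgeR unadjusted p-values were 0.0126, 0.0138, 0.0119 and 0.0200, and their adjusted p-values 0.802, 0.811, 0.802 and 0.824.

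**Figure D5:**
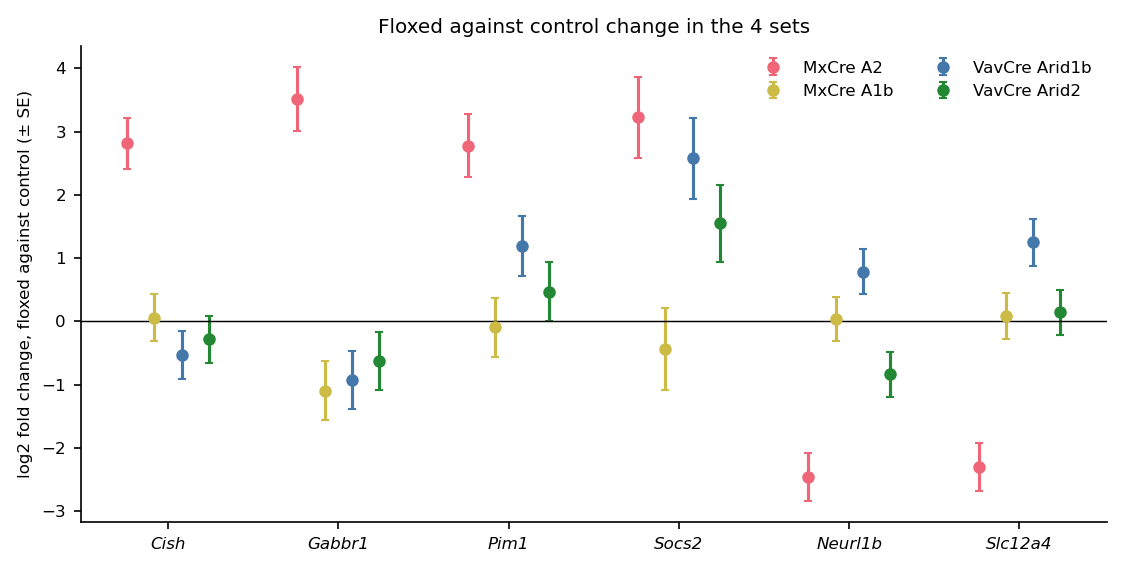
Log2 fold change of floxed against control libraries, with SE, for 6 genes in each of the 4 sets. The A2 values of Cish, Gabbr1, Neurl1b and Slc12a4 stand away from 0, at 2.81, 3.52, -2.46 and -2.30, while Socs2 is above 0 in VavCre Arid1b as well.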

How the data were processed

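Poly(A)-selected RNA was sequenced from directional libraries, per the labels' protocols. The authors deposited raw read counts per gene symbol. Alignment used STAR and mm10, per the submitters' processing notes; for counter, annotation and strand setting nothing is given in the sources used here. The count table held 24046 genes, 2194 without reads. Counts were analysed with edgeR 4.0.16 in R 4.3.3: filterByExpr (minimum count 10, total 15) left 14099 genes, libraries were TMM-scaled, and a robust quasi-likelihood model with 8 group means was fitted to all 24 libraries (16 residual degrees of freedom, common biological coefficient of variation 0.4). A gene was called where its p, after Benjamini-Hochberg adjustment, was under 0.05, and the SE was derived from the F statistic. Levels are CPM on scaled library sizes, with precision limited by depth and 3 libraries a group. The code of the fit was also run on simulated counts with known changes, and no result here rests on that run. Alternatives included DESeq2 1.42.0, limma 3.58.1 voom, other filters, a Y term and leaving out libraries. RefSeq positions matched 99.5% of tested genes, and promoter windows are from RefSeq GRCm38.p6. Named genes were Arid1b and Arid2, all called genes, the 10 highest and 10 lowest non-overlapping changes with at least 5 CPM in the higher group, list members with the smallest p, and the 5 smallest p of each difference. Members and lists were chosen with earlier results of these data known.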

Additional observations from a re-analysis of the deposited data

Results flagged for a closer look

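The 17 genes below are those called in the A2 set and those with the smallest p among all genes whose floxed change differed between the A2 set and another set by the edgeR quasi-likelihood test of the difference, with Benjamini-Hochberg adjustment over all genes; values below are differences of log2 fold changes, A2 minus the other set. Against VavCre Arid1b these were -4.204 for Dusp3, a phosphatase of MAP kinases (A2 change -1.68, other set 2.52; adjusted p = 0.00137), and 3.567 for Cd63, a lysosomal tetraspanin (0.88 and -2.69; adjusted p = 0.00137). The difference was -1.367 for Ints4, a subunit of the Integrator complex, -2.507 for Limd1, a LIM domain scaffold, and 1.601 for Atg12, an autophagy protein (edgeR adjusted p = 0.00274 for each). Their A2 changes were -0.32, -0.85 and 0.40, smaller in size than those of the other set, 1.05, 1.66 and -1.20. The edgeR test called none of these 5 in the A2 set itself; DESeq2 called Dusp3 there (adjusted p = 0.0021). Of the 4 called genes, Slc12a4 differed by -3.546, Gabbr1 by 4.436, Neurl1b by -3.242 and Cish by 3.342. Sex and genotype run in opposite directions in these sets, and their parts cannot be told apart here.

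Against VavCre Arid2 the difference was 5.387 for Ets1 (A2 change 2.46, other set -2.92; edgeR adjusted p = 0.0183), 10.2 for Mlph, an adaptor for melanosome transport, 3.095 for Tmem2, a cell surface hyaluronidase, and 9.561 for Paqr8, a membrane progestin receptor (adjusted p = 0.0220 for each of the 3). For Mlph, Paqr8 and Tmem2 the A2 changes were 3.13, 1.79 and 1.29. Those of the other set were larger in size, at -7.07, -7.77 and -1.81. Gabbr1 differed by 4.139, Slc12a4 by -2.442 and Cish by 3.095. Against MxCre A1b the difference was -1.529 for Gla, the lysosomal alpha-galactosidase (edgeR adjusted p = 0.0130), and 6.095 for Prkca, a protein kinase C gene (A2 change 3.24, other set -2.85; adjusted p = 0.0216). It was 9.473 for Col6a3, a collagen VI chain, 4.638 for Reps2, an endocytosis protein, 4.61 for Gabbr1 and 2.75 for Cish. For Gla, Col6a3 and Reps2 the A2 changes were -0.51, 3.63 and 2.06. Those of the other set were larger in size, at 1.02, -5.84 and -2.58. Y-positive libraries were also unevenly spread over the control and floxed groups of VavCre Arid2 and MxCre A1b. The parts of sex and genotype are not separated in these values.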

How the results depend on the processing

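Of the 4 called genes, each kept its direction under all 17 alternatives. The count of 4 was 7 with a minimum count of 50, 7 without Rn45s (chosen after seeing the data), 196 by DESeq2, 1223 by limma voom and 0 with the term for Y-positive libraries (edgeR, 1200 at an unadjusted p under 0.05), and 0 to 18 when 1 library was left out. Against VavCre Arid1b the count of 1036 was 1909 by DESeq2, 4709 by voom, 13 with the Y term and 316 to 2076 with 1 library left out. Against VavCre Arid2 the count of 69 was 18 without a filter, 260 in those sets alone, 233 without 2 libraries of other sets, 714 by DESeq2, 4787 by voom, 255 with the Y term and 0 to 666 with 1 library left out. Against MxCre A1b the count of 27 was 14 without a filter, 45 with a minimum count of 50 and 0 in those sets alone. It was 1 without 2 libraries of other sets, 604 by DESeq2 and 41 without robust estimation. With 1 library left out it was 2 to 33, and with the Y term 28, 7 of them among the 27. Between the A2 and A1b controls, DESeq2 called 28 and voom 36. With 1 library left out the log2 fold change ran from -0.87 to 0.0148 for Arid1b, -0.55 to 0.240 for Arid2, -0.138 to 1.98 for Pbx3, -0.0208 to 1.00 for Bst2, -0.58 to 2.24 for Tubb1 and -0.0497 to 2.30 for Paqr8; the lowest values of Pbx3, Bst2 and Tubb1 were without floxed 3 and that of Paqr8 without floxed 2. Tubb1 was at -0.59 by voom. With the Y term Kdm5d was at -2.10, Ddx3y at -3.39, Xist at 1.59, Tsix at 1.37 and Cox4i1 at 0.0190. The cause of these changes was not tested.

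Same-numbered control and floxed libraries did not deviate together (correlations -0.00434, -0.122 and -0.206), and those with unlike numbers gave -0.147 to 0.189. With 3 libraries a group this cannot exclude a pairing. The labels name none, so the numbers were taken as names of libraries. With the replicate block the called genes were 3 in the A2 set, and 40, 0 and 4 against VavCre Arid1b, VavCre Arid2 and MxCre A1b (2791, 2220 and 2354 at an unadjusted p under 0.05).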

Other observations

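Of the genes next in the order of p, Tnfrsf18, the GITR receptor of lymphocytes, was at 2.75, 4.89 and 2.22 CPM in the controls and at 21.0, 11.6 and 21.3 CPM in the floxed libraries (log2 fold change 2.44; edgeR adjusted p = 0.0978). Gimap6, a GTPase of lymphoid cells, was at 2.17, 1.66 and 2.40 CPM against 6.73 to 22.7 CPM (2.54; adjusted p = 0.0978). Prkca was at 0.820, 0.692 and 1.35 CPM against 8.69, 11.4 and 6.93 CPM. The groups did not overlap for any of these 3 genes, and edgeR called none, while DESeq2 called Tnfrsf18 (adjusted p = 7.0e-05), Gimap6 (1.6e-04) and Prkca (3.5e-04). Hlf, a transcription factor of stem cells, chosen after its values were seen, was at 0.820, 0.277 and 0.351 CPM in the controls and at 9.39, 5.41 and 3.60 CPM in the floxed libraries.

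Neurl1b and Gabbr1 both lie on chromosome 17, which holds 744 of the tested genes with a position (5.3%). Between them 249 genes were tested, 29 of these did not overlap between the groups (11.6%, beside 15% of all genes), and the median log2 fold change was -0.0271. Within 5 Mb of the start of Arid1b, 5 of 45 tested genes did not overlap (11.1%), and within 5 Mb of the start of Arid2, 19 of 95 (20%). No gene in either window was called in edgeR, beside 0.0284% of all genes. At an unadjusted p under 0.05 there were 2 and 18, or 4.44% and 18.9%, beside 10.6% of all genes.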
